A study of Mus musculus with 10 samples.

Results

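Open chromatin was examined at 6 genes of the Notch pathway, Notch1, Notch2, Rbpj, Maml2, Hes1 and Dtx1, in innate lymphoid cells (ILCs) of the mouse small intestine. A peak of accessible chromatin was counted for a gene when that gene's body was the nearest protein-coding one and lay within 50 kb. This rule gave 38 of the 36251 peaks tested: 5 for Notch1, 5 for Notch2, 10 for Rbpj, 13 for Maml2, 3 for Hes1 and 2 for Dtx1. Of these, 5 touched or lay within 1 kb of an end of the gene, 26 lay inside the gene and 7 outside it.

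The ATAC-seq assay, in which the Tn5 transposase cuts and tags open chromatin, was applied to ILCs flow-sorted from the lamina propria of C57BL/6 mice that had received tamoxifen in the diet, starting several weeks before the sort. All mice carried Id2creERT2, a Cre recombinase made from the Id2 locus and active only with tamoxifen, and the tdRFP reporter. Control mice (3 libraries) are listed with no floxed gene. The RORgt-KO group (2 libraries) carried a floxed allele that both other knockout groups shared. RORgt-Tbet-KO mice (2 libraries) carried Tbx21f/f in addition, and RORgt-RORa-KO mice (3 libraries) carried Roraf/f in addition. Tbx21 encodes T-bet, a regulator of group 1 ILCs, and Rora encodes RORa, a regulator of group 2 ILCs. Biological replicates came from single intestines or pools, 1 or 2/3 mice each. Id2 is active in many lymphoid cells. The sources used here do not give the age and sex of the mice, the sorting antibodies or the share of cells with a deletion, and loss of the floxed exons was not checked here.

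Notch receptors are membrane proteins that are cut when they bind a ligand on a neighbouring cell. The released intracellular part enters the nucleus, joins the DNA-binding protein RBPJ and a Mastermind coactivator, and switches on genes such as Hes1 and Dtx1. Without it, RBPJ recruits corepressors. Notch signals are known for roles in lymphoid fate choice and in the formation of natural cytotoxicity receptor-bearing group 3 ILCs. Chromatin accessibility shows where regulatory DNA is open and is not a measure of Notch signalling or of transcription.

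Values are the authors' log2 scaled reads per peak. Reads in peaks numbered 2271585 to 5047436 per library, and the 38 peaks held from 5 to 900 reads each in a library. All 12 ILC marker genes examined had a peak, among them Id2, Il7r and Gata3. Their 78 peaks summed to 8477 to 9739 scaled reads in Control and 8286 to 8658 in RORgt-KO. The sums were 10678 to 10718 in RORgt-Tbet-KO and 8008 to 9530 in RORgt-RORa-KO. B cell markers without a peak included Cd79a, Cd79b and Ms4a1. Of the T cell markers Cd3g, Cd8a and Cd8b1 had none, while Cd3d, Cd3e, Cd5, Cd28 and Cd40lg had peaks. The peaks of the other B cell markers (4 of 8 genes, 13 peaks) summed to 1076 to 1167 scaled reads in Control, 689 to 715 in RORgt-KO, 730 to 851 in RORgt-Tbet-KO and 590 to 693 in RORgt-RORa-KO. Those of T cell markers (5 of 8 genes, 9 peaks) summed to 401 to 475, 457 to 501, 532 to 603 and 682 to 788 in the same order. Epithelial markers (6 of 10 genes) gave 851 to 999, 1207 to 1217, 1207 to 1219 and 1062 to 1152, and stromal and endothelial markers (5 of 9 genes) gave 1018 to 1130, 990 to 1038, 1334 to 1363 and 1061 to 1139. Myeloid markers (3 of 7 genes) gave 275 to 340, 409 to 413, 429 to 478 and 425 to 512. These sums moved with the groups, and their part in the results below was not tested. In sorted bulk cells a change of cell mixture and a change within each cell cannot be told apart.

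The annotated starts of 4 of the genes lay in open chromatin, and their promoters are shown because those peaks did not pass the test in any comparison. Sequences come from RefSeq on GRCm38.p6, run 5′ to 3′ on the gene's strand from 250 bases before the start to 50 after it. RefSeq windows were found for 5 of the 6 genes, 7 windows in all; Hes1 was the exception. Capitals mark matches, on either strand, to 4 short motifs: TGGGAA, the core of the RBPJ site; AGGTCA, the core of the ROR element; AGGTGT, the core of the T-box site; and CACNAG, the N-box bound by HES repressors.
Notch1 (chr2:26503773-26504072, minus strand): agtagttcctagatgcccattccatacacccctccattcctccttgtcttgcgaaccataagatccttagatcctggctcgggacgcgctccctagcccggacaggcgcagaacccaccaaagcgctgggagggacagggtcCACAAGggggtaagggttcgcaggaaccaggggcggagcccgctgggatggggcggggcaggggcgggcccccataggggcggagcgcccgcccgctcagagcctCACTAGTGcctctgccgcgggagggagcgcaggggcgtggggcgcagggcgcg
Notch2 (chr3:98013288-98013587, plus strand): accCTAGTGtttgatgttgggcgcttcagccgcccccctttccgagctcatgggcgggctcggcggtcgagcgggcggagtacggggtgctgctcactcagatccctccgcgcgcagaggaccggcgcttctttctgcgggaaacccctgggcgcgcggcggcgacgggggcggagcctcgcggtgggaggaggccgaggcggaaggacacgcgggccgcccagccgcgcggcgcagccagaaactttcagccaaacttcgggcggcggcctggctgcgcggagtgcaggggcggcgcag
Rbpj (chr5:53590096-53590395, plus strand): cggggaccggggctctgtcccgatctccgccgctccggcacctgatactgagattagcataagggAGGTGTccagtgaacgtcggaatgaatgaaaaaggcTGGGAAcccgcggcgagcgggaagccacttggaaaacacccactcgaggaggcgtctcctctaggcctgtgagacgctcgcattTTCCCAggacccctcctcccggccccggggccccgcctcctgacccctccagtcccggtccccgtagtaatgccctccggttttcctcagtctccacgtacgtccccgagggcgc
Maml2 (chr9:13297708-13298007, plus strand): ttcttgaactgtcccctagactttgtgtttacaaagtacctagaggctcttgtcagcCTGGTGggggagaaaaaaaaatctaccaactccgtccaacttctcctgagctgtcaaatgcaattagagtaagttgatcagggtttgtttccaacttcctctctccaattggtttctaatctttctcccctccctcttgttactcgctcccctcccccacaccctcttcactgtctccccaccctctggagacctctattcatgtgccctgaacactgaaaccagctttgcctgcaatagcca
The Rbpj window held 2 matches to the RBPJ core, at 149 and 65 bases before the start counted to the first base of the match, and 1 to the T-box core. The Notch1 window held 3 N-box matches, 2 of which overlap on opposite strands, and those of Notch2 and Maml2 held 1 each. Only 135 of the 300 bases of the Maml2 window lay in its peak, and its N-box match lay outside them. Over all 32851 promoter windows of the same length, 25.6% held the RBPJ core, 16.3% the ROR core, 13.7% the T-box core and 42.5% the N-box. Such matches are a description of the letters and do not show that a factor bound there. None of these 4 windows held the ROR core. The second Maml2 window, at chr9:13662210-13662509, held 1 ROR core and 1 RBPJ core and overlapped no peak, and neither did the Dtx1 window.

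At these starts no difference between groups passed the test. The Rbpj start peak (chromosome 5, 53588867 to 53590724) was one of the most accessible of the 38, at 9.58, 9.34 and 9.40 (Control), 9.51 and 9.38 (RORgt-KO), 9.63 and 9.46 (RORgt-Tbet-KO), with 9.04, 9.03 and 9.66 (RORgt-RORa-KO). Its largest difference from Control was -0.20 (SE 0.16, limma adjusted p = 0.387), in RORgt-RORa-KO. The Maml2 gene had a peak over the first base of its annotated body, 1.32 kb upstream of the start used here, at 9.28 ± 0.22 (SD, n = 3) in Control and 9.10 to 9.16 on average in the knockouts. The peak at the Maml2 start itself was at 7.76 ± 0.09 in Control and 7.86 to 8.03 in the knockouts. The Notch1 start peak ranged from 6.40 to 6.92 in Control and from 6.71 to 7.29 over the knockouts, and the Notch2 start peak from 6.94 to 7.31 and from 6.84 to 7.47. Per kb of peak, the Control level was 833 scaled reads for the upstream Maml2 peak, 376 for Rbpj, 306 for the Maml2 start, 130 for Notch2 and 97 for Notch1. The Notch1 and Notch2 starts were thus the least accessible of these for their length. At the Notch2 start both RORgt-Tbet-KO libraries lay below all others; their difference from Control (-0.21, SE 0.21, limma adjusted p = 0.502) did not pass.

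Over the 38 peaks, 11 (28.9%) differed among the 4 groups in limma's moderated F test, against 30.7% of all peaks. By place, 1 of 5 gene-end peaks, 8 of 26 inside and 2 of 7 outside passed, where 12.7%, 37.4% and 37% of all peaks of those places did. The start peaks of Rbpj and Maml2 counted as inside the gene, because the RefSeq body of each begins upstream of the start used here. Gene-end peaks are therefore not the same set as the start peaks above. Against Control, 3 peaks changed in RORgt-KO (2 higher, 1 lower; 7.89%, against 12.3% of all peaks, 5.19% higher and 7.12% lower), 4 in RORgt-Tbet-KO (2 higher, 2 lower; 10.5%, against 22.6%, with 11.3% in each direction) and 13 in RORgt-RORa-KO (7 higher, 6 lower; 34.2%, against 31.2%, 15.1% higher and 16.1% lower). These shares were near or below those of all peaks. RORgt-RORa-KO had 3 libraries and each other knockout 2, so a change of the same size was easier to call there. The median difference over the 38 peaks was 0.09, -0.02 and 0.165, and over all peaks 0.02, 0.01 and 0.02. In all, 15 of the 38 peaks (39.5%) changed in at least 1 knockout, against 38.7% of all peaks, and 2 (5.26%) in all 3, against 8.7%, one upstream of Rbpj and one inside Maml2; the 3 comparisons share the Control libraries. The first count fell to 1 without RORgt-KO replicate 2, the second to 1 without either RORgt-Tbet-KO library, and the third was 10 to 13 when single libraries were left out.

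**Figure D1:**
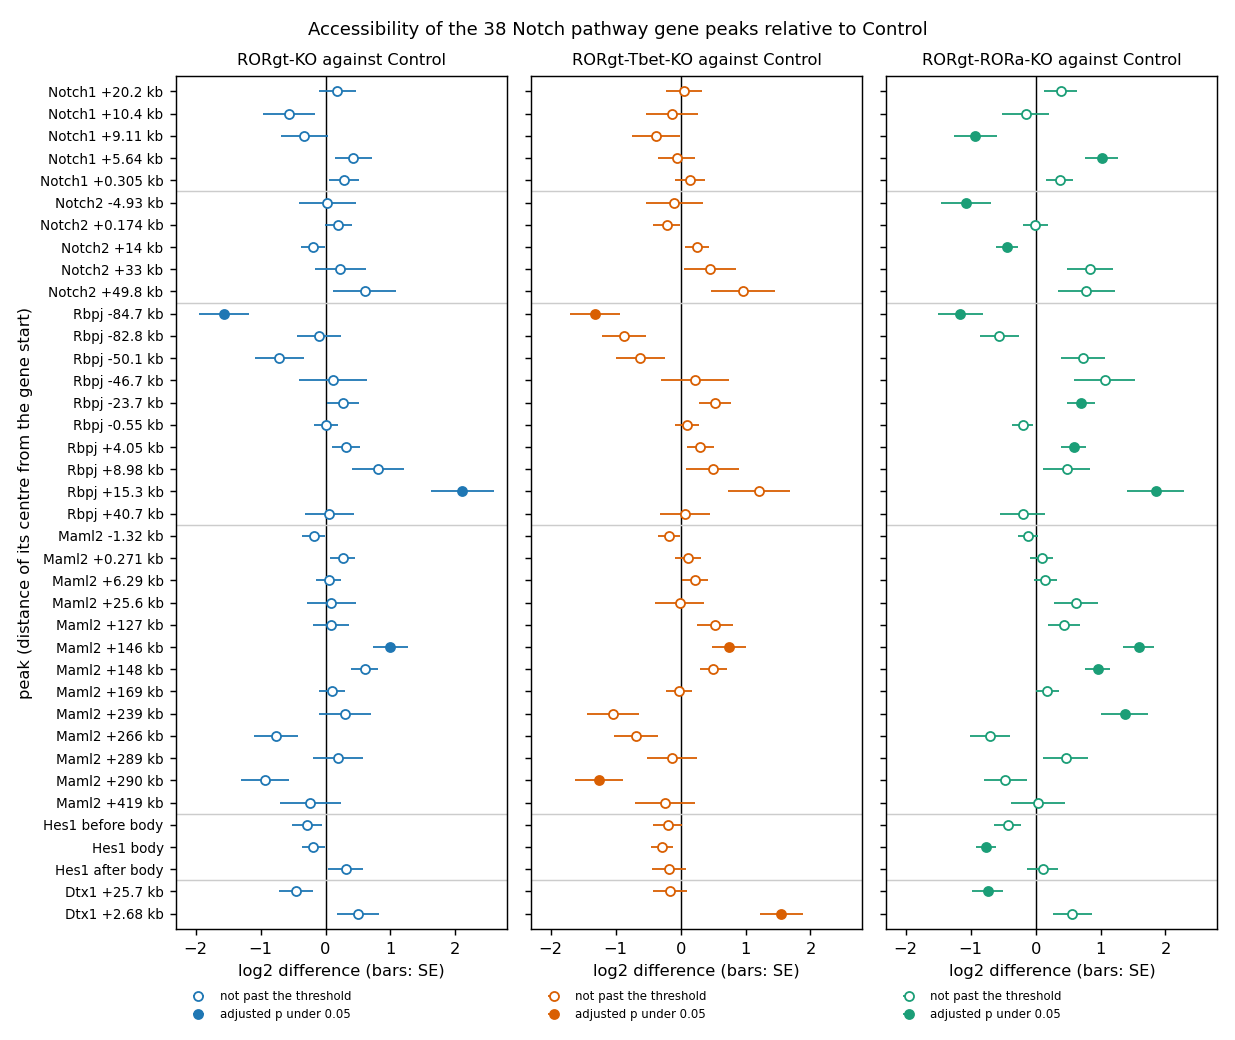
Log2 difference from Control (horizontal axis; bars, limma SE) of each of the 38 peaks, named by gene and by the distance of the peak's centre from the gene start, with the Hes1 peaks named by their place beside the gene body. Filled points passed at an adjusted p under 0.05: 3 in RORgt-KO, 4 in RORgt-Tbet-KO and 13 in RORgt-RORa-KO, with higher and lower peaks in the same gene for Notch1, Rbpj, Maml2 and Dtx1.

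Notch1 encodes the receptor that drives T lineage commitment in the thymus. Against Control, its peaks passed the test only in RORgt-RORa-KO, 1 higher and 1 lower of 5. That group had 3 libraries and the other knockouts 2 each. The peak 5.64 kb downstream of the start, inside the gene (chromosome 2, 26497937 to 26498424), stood at 5.23, 5.58 and 5.43 (Control), 5.74 and 5.94 (RORgt-KO), 5.16 and 5.55 (RORgt-Tbet-KO), with 6.55, 6.43 and 6.32 (RORgt-RORa-KO). The 3 RORgt-RORa-KO libraries lay above the other 7. The rise over Control was 1.02 on the log2 scale (SE 0.25, 2.03-fold, limma adjusted p = 0.00265), and over RORgt-Tbet-KO it was 1.08 (SE 0.28, adjusted p = 0.0157). The difference from RORgt-KO was 0.59 (SE 0.28, adjusted p = 0.39) and did not pass. The call against RORgt-Tbet-KO was lost without either RORgt-Tbet-KO library or without RORgt-RORa-KO replicate 1 (0.88 to 1.27 over all libraries left out).

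A second Notch1 peak 9.11 kb downstream of the start (26494623 to 26494810) fell in RORgt-RORa-KO, by 0.93 (SE 0.33, 1.9-fold, limma adjusted p = 0.0296). It stood at 5.18, 5.54 and 5.85 (Control), 4.99 and 5.41 (RORgt-KO), 5.08 and 5.20 (RORgt-Tbet-KO), with 4.73, 4.82 and 4.24 (RORgt-RORa-KO). This peak held as few as 16 reads in a library, and its call was lost without Control replicate 2, Control replicate 3 or RORgt-RORa-KO replicate 3, with only the groups compared in the fit and with library weights. Opposite changes thus stood 3127 bp apart within Notch1. The peaks 10.4 and 20.2 kb downstream did not pass in any comparison.

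Notch2 encodes the receptor needed for marginal zone B cells and some intestinal dendritic cells. Of its 5 peaks, 2 fell in RORgt-RORa-KO and none rose in any knockout. The most accessible Notch2 peak, 14 kb downstream of the start (chromosome 3, 98027215 to 98027767), had a level per kb of 456 in Control, above that of the start peak. Its values were 8.02, 7.99 and 7.92 (Control), 7.76 and 7.80 (RORgt-KO), 8.21 and 8.25 (RORgt-Tbet-KO), with 7.63, 7.21 and 7.74 (RORgt-RORa-KO). No library of one group overlapped another group, and RORgt-Tbet-KO was the highest. RORgt-RORa-KO lay below RORgt-Tbet-KO by 0.70 (SE 0.19, 1.62-fold, limma adjusted p = 0.0189). That call was lost without either RORgt-Tbet-KO library, without RORgt-RORa-KO replicate 2 and without a mean-variance trend. The fall from Control was 0.45 (SE 0.17, adjusted p = 0.0447), and it was lost in 5 of 10 alternative settings and on leaving out any of 8 of the 10 libraries.

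The other Notch2 call was a small peak 4.93 kb upstream of the start (98008497 to 98008719). It stood at 4.69, 5.28 and 4.68 (Control), 4.93 and 4.90 (RORgt-KO), 4.44 and 5.14 (RORgt-Tbet-KO), with 4.07, 3.82 and 3.54 (RORgt-RORa-KO), where it fell by 1.07 (SE 0.39, 2.1-fold, limma adjusted p = 0.0358). RORgt-RORa-KO was below every other library. With 8 reads in the lowest library, the call was lost when any of 4 libraries was left out (Control replicate 2, either RORgt-Tbet-KO library or RORgt-RORa-KO replicate 3), with voom on the recovered reads, with only the groups compared and with library weights. The peaks 33 and 49.8 kb downstream differed from Control in RORgt-RORa-KO by 0.84 (SE 0.36) and 0.78 (SE 0.44), with adjusted p of 0.075 and 0.182.

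Rbpj encodes the DNA-binding partner of every Notch receptor. Of its 10 peaks, 3 rose and 1 fell in RORgt-RORa-KO, 1 rose and 1 fell in RORgt-KO, and 1 fell in RORgt-Tbet-KO. The peak 15.3 kb downstream of the start, inside the gene (chromosome 5, 53605469 to 53605832), was nearly closed in 2 of 3 Control libraries. Its values were 2.69, 3.18 and 4.85 (Control), 5.90 and 5.46 (RORgt-KO), 4.77 and 4.79 (RORgt-Tbet-KO), with 4.94, 5.77 and 5.54 (RORgt-RORa-KO). Control replicate 3 was close to the RORgt-Tbet-KO libraries, and the other Control libraries were far below. The rise was 2.11 (SE 0.48, 4.3-fold, limma adjusted p = 0.00368) in RORgt-KO and 1.85 (SE 0.43, 3.6-fold, adjusted p = 0.00151) in RORgt-RORa-KO. Without Control replicate 3 they were 2.74 and 2.48. RORgt-Tbet-KO differed from Control by 1.21 (SE 0.48, adjusted p = 0.0718) and from RORgt-KO by -0.90 (SE 0.53, adjusted p = 0.504), neither past the threshold. The RORgt-KO call was lost without RORgt-KO replicate 1.

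In the opposite direction, the Rbpj peak 84.7 kb upstream of the start (53505459 to 53505804) fell in all 3 knockouts. It lay 49975 bp from the gene body, just inside the 50 kb limit, so its tie to Rbpj rests on distance alone. Its values were 5.73, 5.76 and 6.17 (Control), 4.53 and 4.11 (RORgt-KO), 4.50 and 4.65 (RORgt-Tbet-KO), with 4.88, 5.14 and 4.16 (RORgt-RORa-KO). Every Control library was above every knockout library. The fall was 1.57 (SE 0.39, 2.96-fold, limma adjusted p = 0.0068), 1.31 (SE 0.39, 2.48-fold, adjusted p = 0.0147) and 1.16 (SE 0.35, 2.24-fold, adjusted p = 0.011) in the 3 groups, and no pair of knockouts differed past the threshold (adjusted p 0.736 to 0.888). The calls were lost without RORgt-KO replicate 2, without either RORgt-Tbet-KO library and without RORgt-RORa-KO replicate 3, respectively.

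A further Rbpj peak, 50.1 kb upstream and outside the gene (53540085 to 53540459), separated RORgt-RORa-KO from the other knockouts. It stood at 4.96, 4.83 and 5.32 (Control), 4.68 and 3.97 (RORgt-KO), 4.23 and 4.60 (RORgt-Tbet-KO), with 5.48, 6.03 and 5.80 (RORgt-RORa-KO). The Control libraries lay between the RORgt-RORa-KO libraries and those of the other knockouts. RORgt-RORa-KO exceeded RORgt-Tbet-KO by 1.35 (SE 0.38, 2.55-fold, limma adjusted p = 0.0244) and RORgt-KO by 1.44 (SE 0.38, 2.72-fold, adjusted p = 0.0474), whereas its difference from Control, 0.73 (SE 0.34, adjusted p = 0.103), did not pass. The call against RORgt-KO was lost in 5 of 9 settings, the replicate block among them, and without any of 8 libraries. That against RORgt-Tbet-KO was lost without either RORgt-Tbet-KO library or without RORgt-RORa-KO replicate 2.

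The remaining Rbpj calls were smaller rises in RORgt-RORa-KO. A peak 23.7 kb upstream of the start, inside the annotated gene body (53566154 to 53567207), rose by 0.70 (SE 0.22, limma adjusted p = 0.0142), with 5.83, 5.99 and 6.10 in Control against 6.48, 6.86 and 6.68. A peak 4.05 kb downstream of the start (53594199 to 53594602) rose by 0.59 (SE 0.19, adjusted p = 0.0171), with 7.02, 7.39 and 7.10 in Control against 7.42, 7.98 and 7.88. Control and RORgt-RORa-KO did not overlap at either peak. At both, the RORgt-KO and RORgt-Tbet-KO means lay between those of Control and RORgt-RORa-KO, at 6.25 and 6.51 and at 7.49 and 7.48. The first call was lost without Control replicate 1. The second was lost without Control replicate 1 or RORgt-RORa-KO replicate 2 or 3, with library weights and without a mean-variance trend. The other 5 Rbpj peaks, the start peak among them, differed from Control by -0.88 to 1.06, none past the threshold.

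**Figure D2:**
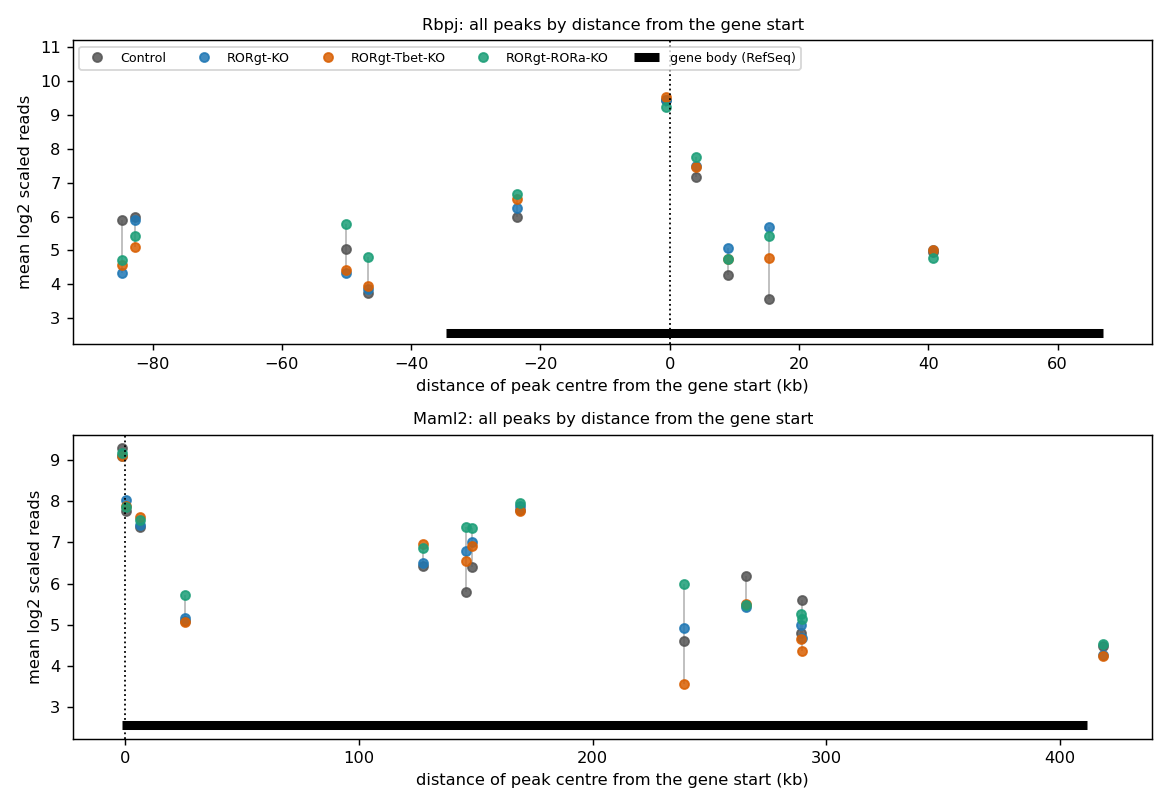
Mean log2 scaled reads of each group (vertical axis) at every Rbpj peak (top) and Maml2 peak (bottom), by the distance of the peak's centre from the gene start in kb; the black bar is the RefSeq gene body and the dotted line the start. Groups lay close together at the starts and apart at some distal peaks, such as the Rbpj peak 15.3 kb and the Maml2 peaks 146 and 239 kb downstream.

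Maml2 encodes a Mastermind-like coactivator that bridges the Notch and RBPJ complex to the transcription machinery. Its gene body spans 412973 bp, and of its 13 peaks 3 rose in RORgt-RORa-KO, 1 rose in RORgt-KO, and 1 rose and 1 fell in RORgt-Tbet-KO. The peak 146 kb downstream of the start (chromosome 9, 13443490 to 13443893) had the smallest F test p of the 38 (adjusted p = 8.34e-05). Its values were 5.66, 6.13 and 5.58 (Control), 6.57 and 7.01 (RORgt-KO), 6.67 and 6.40 (RORgt-Tbet-KO), with 7.05, 7.96 and 7.13 (RORgt-RORa-KO). Every knockout library was above every Control library, and the RORgt-RORa-KO libraries were above all others. The rise was 1.00 (SE 0.27, limma adjusted p = 0.0123), 0.75 (SE 0.27, adjusted p = 0.0442) and 1.59 (SE 0.24, 3.01-fold, adjusted p = 7.99e-06) in the 3 knockouts, in the order above. The RORgt-RORa-KO rise over RORgt-Tbet-KO was 0.84 (SE 0.27, adjusted p = 0.0502) and just missed the threshold. The RORgt-KO call was lost without RORgt-KO replicate 2 and without a mean-variance trend. The RORgt-Tbet-KO call was lost in 4 of 10 settings, the replicate block among them, and without any of 6 libraries.

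The next peak, 2369 bp further on (13446262 to 13446654), had the same order of groups. It stood at 6.52, 6.30 and 6.38 (Control), 7.11 and 6.90 (RORgt-KO), 7.04 and 6.77 (RORgt-Tbet-KO), with 7.32, 7.42 and 7.33 (RORgt-RORa-KO), again with no knockout library below a Control library. The rise in RORgt-RORa-KO was 0.95 (SE 0.19, 1.94-fold, limma adjusted p = 0.000284). The differences in RORgt-KO (0.60, SE 0.21, adjusted p = 0.0618) and RORgt-Tbet-KO (0.50, SE 0.21, adjusted p = 0.0872) did not pass.

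The Maml2 peak 239 kb downstream of the start (13536755 to 13537186) gave the largest difference between knockouts among the 38 peaks. Its values were 4.62, 4.96 and 4.26 (Control), 4.53 and 5.29 (RORgt-KO), 3.82 and 3.33 (RORgt-Tbet-KO), with 6.04, 6.34 and 5.57 (RORgt-RORa-KO). RORgt-Tbet-KO was below and RORgt-RORa-KO above every other library. RORgt-RORa-KO exceeded RORgt-Tbet-KO by 2.41 (SE 0.41, 5.31-fold, limma adjusted p = 0.00019) and Control by 1.37 (SE 0.36, 2.59-fold, adjusted p = 0.00443), and both calls held in all 10 settings and without any one library. RORgt-Tbet-KO differed from Control by -1.04 (SE 0.41, adjusted p = 0.0647) and from RORgt-KO by -1.34 (SE 0.44, adjusted p = 0.163). The peak held 12 to 53 reads per library.

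One Maml2 peak fell. The peak 290 kb downstream of the start (13587595 to 13587873) was at 5.69, 5.86 and 5.26 (Control), 4.37 and 4.97 (RORgt-KO), 4.44 and 4.27 (RORgt-Tbet-KO), with 5.34, 5.28 and 4.80 (RORgt-RORa-KO). The fall in RORgt-Tbet-KO was 1.25 (SE 0.37, 2.39-fold, limma adjusted p = 0.0157). RORgt-KO differed from Control by -0.93 (SE 0.37, adjusted p = 0.106) and RORgt-RORa-KO by -0.47 (SE 0.33, adjusted p = 0.31). The call was lost without Control replicate 2 or either RORgt-Tbet-KO library. The other Maml2 peaks differed from Control by -0.76 to 0.63, none past the threshold.

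Hes1 encodes a repressor of the basic helix-loop-helix family and is a direct target of Notch in many tissues. It had the 1 gene-end peak among the 38 that changed, which overlaps the body of this short gene (chromosome 16, 30066258 to 30067151; gene 30065357 to 30067796). Its values were 8.78, 8.75 and 8.58 (Control), 8.58 and 8.45 (RORgt-KO), 8.36 and 8.48 (RORgt-Tbet-KO), with 8.02, 7.78 and 8.03 (RORgt-RORa-KO). The RORgt-RORa-KO libraries were below all others, and the highest of the other knockout libraries was level with the lowest Control library. The fall in RORgt-RORa-KO was 0.76 (SE 0.15, 1.69-fold, limma adjusted p = 0.000381), and the call held in all 10 settings and without any one library. The differences were -0.19 (SE 0.17, adjusted p = 0.567) in RORgt-KO and -0.29 (SE 0.17, adjusted p = 0.247) in RORgt-Tbet-KO. RORgt-RORa-KO differed from RORgt-KO by -0.57 (SE 0.17, adjusted p = 0.107) and from RORgt-Tbet-KO by -0.47 (SE 0.17, adjusted p = 0.103), so the fall was not shown to exceed that in the other knockouts.

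The peaks beside Hes1 did not pass the test in any comparison. One 938 bp before the body was at 6.71, 7.04 and 6.91 in Control and at 6.21, 6.68 and 6.49 in RORgt-RORa-KO (difference -0.43, SE 0.21, limma adjusted p = 0.116). One 2341 bp after it was at 6.22 ± 0.36 (SD, n = 3) in Control and 6.33 ± 0.13 in RORgt-RORa-KO.

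Dtx1 encodes Deltex, a ubiquitin ligase that acts on Notch receptors and is itself a Notch target in lymphocytes. Each of its 2 peaks changed in 1 knockout. The peak 2.68 kb downstream of the start, inside the gene (chromosome 5, 120708731 to 120709248), was at 5.23, 5.28 and 4.76 (Control), 5.28 and 5.90 (RORgt-KO), 6.60 and 6.69 (RORgt-Tbet-KO), with 6.16, 5.07 and 5.75 (RORgt-RORa-KO). The RORgt-Tbet-KO libraries were above all others, and the RORgt-RORa-KO libraries overlapped Control. The rise in RORgt-Tbet-KO was 1.55 (SE 0.33, 2.93-fold, limma adjusted p = 0.0011), and the call held in all 10 settings and without any one library. RORgt-Tbet-KO differed from RORgt-KO by 1.05 (SE 0.36, adjusted p = 0.181), and RORgt-RORa-KO from RORgt-Tbet-KO by -0.99 (SE 0.33, adjusted p = 0.0673). Neither passed, so a difference from the other knockouts was not shown.

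The Dtx1 peak 25.7 kb downstream (120685681 to 120686231) fell in RORgt-RORa-KO, by 0.74 (SE 0.24, 1.67-fold, limma adjusted p = 0.0174). It stood at 6.71, 6.37 and 7.02 (Control), 6.45 and 6.04 (RORgt-KO), 6.22 and 6.85 (RORgt-Tbet-KO), with 6.13, 5.86 and 5.89 (RORgt-RORa-KO). The RORgt-Tbet-KO libraries lay on both sides of the lowest Control library, and the RORgt-RORa-KO libraries were below all Control libraries. The call was lost without Control replicate 3, with library weights and without a mean-variance trend.

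**Figure D3:**
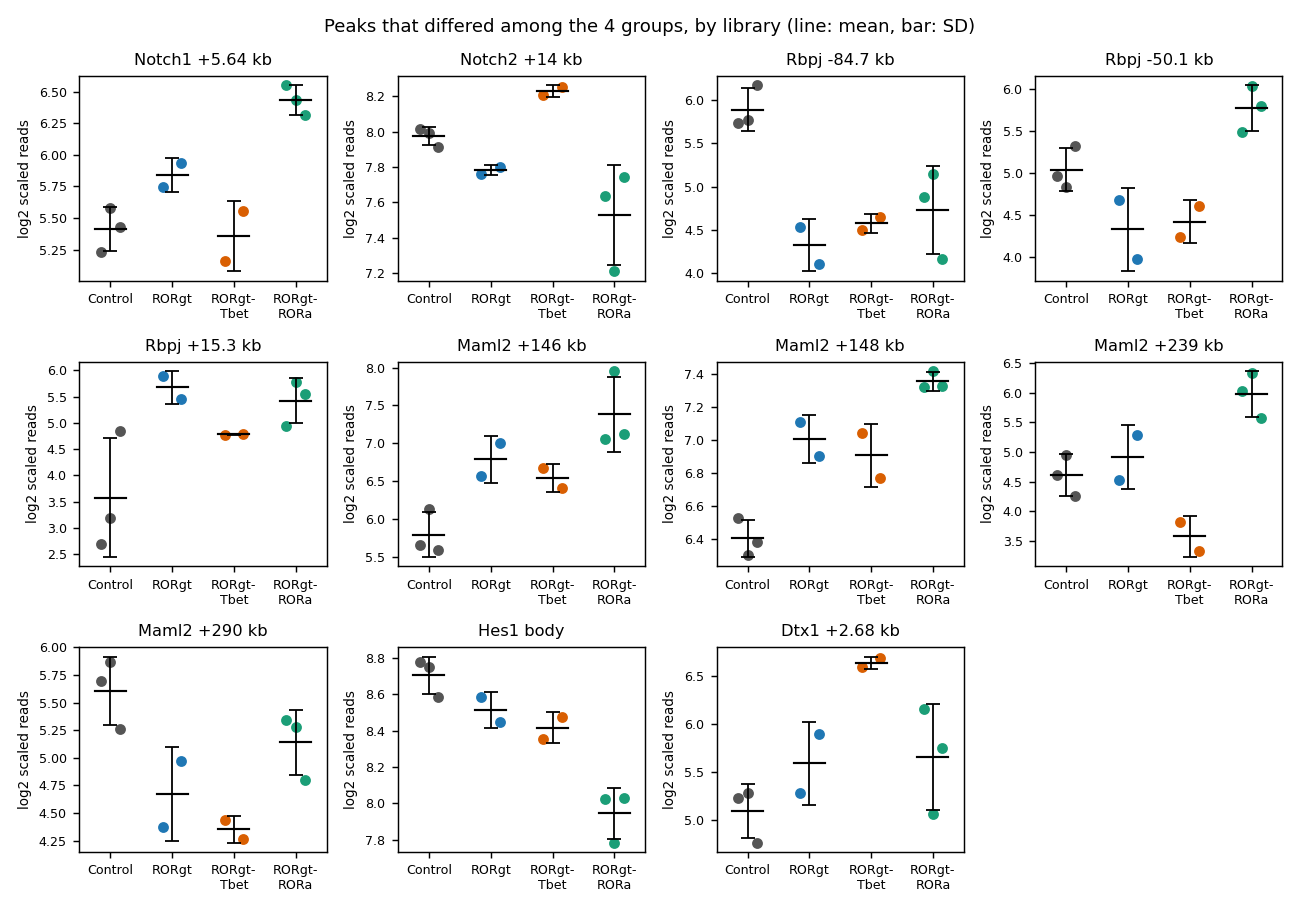
Log2 scaled reads (vertical axis) of each library at the 11 peaks that differed among the 4 groups, with the group mean (line) and SD (bar; n = 3, 2, 2 and 3). The RORgt-RORa-KO libraries are highest at the Notch1 peak and at the Maml2 peaks 146, 148 and 239 kb from the start and lowest at the Hes1 body, and the RORgt-Tbet-KO libraries are highest at the Dtx1 peak 2.68 kb from the start.

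Between knockouts, no peak of the 6 genes differed between RORgt-Tbet-KO and RORgt-KO at an adjusted p under 0.05 in limma. Of all 36251 peaks, 1.14% did (0.179% higher and 0.965% lower). Of the 38, 4 had an unadjusted p under 0.05 in limma, a share that was not counted over all peaks. Voom on the recovered reads also called 0 of the 38, beside 664 of all peaks. With only these groups in the fit 2 were called, beside 3341 of all peaks. With library weights 2 were called, beside 3148 of all peaks. RORgt-RORa-KO differed from RORgt-KO at 1 peak, the one 50.1 kb upstream of Rbpj (2.63%, against 1.47% of all peaks, 0.331% higher and 1.14% lower). It differed from RORgt-Tbet-KO at 4 peaks (10.5%, against 7.54%, 3.82% higher and 3.72% lower), of which 3 were higher, in Notch1, Rbpj and Maml2, and 1 lower, in Notch2. This last count was 1 without either RORgt-Tbet-KO library and 2 without RORgt-RORa-KO replicate 2.

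Scaled reads were also summed over the peaks of each gene. Hes1 gave 633, 644 and 559 scaled reads (Control), 592 and 524 (RORgt-KO), 503 and 520 (RORgt-Tbet-KO), with 407, 409 and 433 (RORgt-RORa-KO), and these last did not overlap any other group. Notch2 gave 457 ± 34.6 (SD, n = 3) in Control, 456 ± 24.1 (n = 2) in RORgt-KO, 504 ± 18.2 (n = 2) in RORgt-Tbet-KO and 402 ± 20.6 (n = 3) in RORgt-RORa-KO. Dtx1 gave 140 ± 17.6, 126 ± 0.769, 195 ± 33.5 and 115 ± 24.9 in the same order. Rbpj stayed between 1144 and 1200 on average, with an SD of 192 in RORgt-RORa-KO. Maml2 (1700 ± 216 in Control, 1963 ± 156 in RORgt-RORa-KO) and Notch1 (305 ± 67.7 and 363 ± 27.8) overlapped between these groups. These sums are a description and were not tested. They hold the same reads as the single peaks above, among them the Hes1 body peak and the Dtx1 peak 2.68 kb downstream. The sums are therefore not separate evidence of a change.

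**Figure D4:**
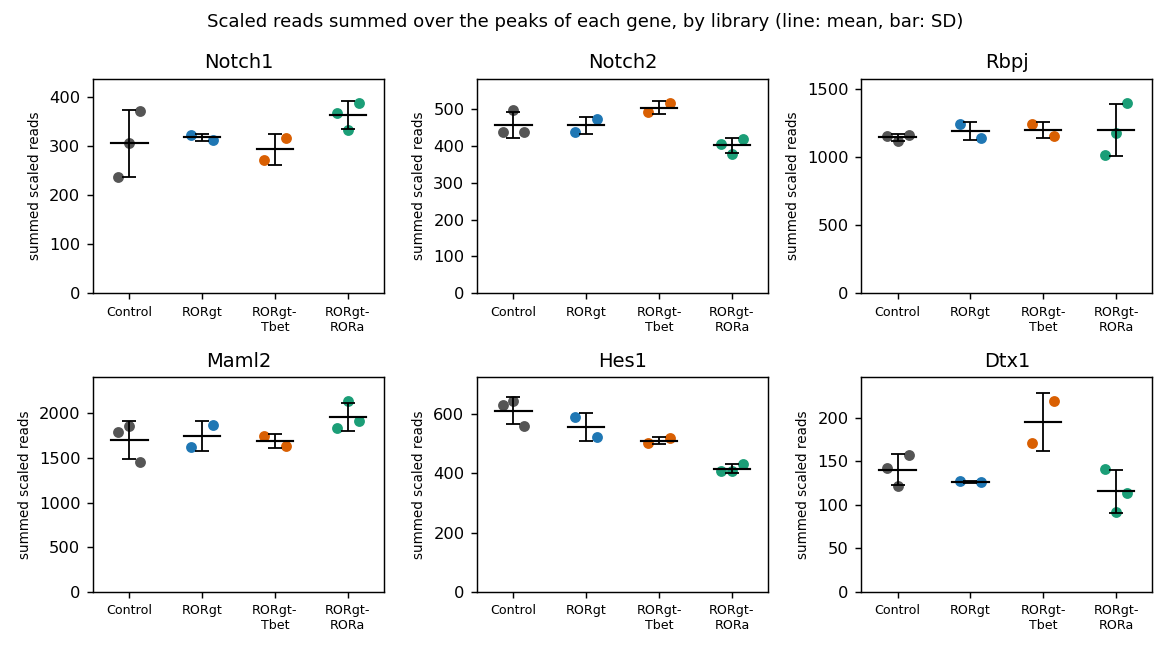
Scaled reads summed over all peaks of each gene (vertical axis, from 0) in each library, with the group mean (line) and SD (bar). The RORgt-RORa-KO libraries had the lowest sums for Hes1, between 407 and 433, and the RORgt-Tbet-KO libraries the highest for Dtx1, at 171 and 219.

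The other genes of the pathway were followed as a list of 57, of which 52 had 167 peaks. In RORgt-KO 7 genes had only higher and 2 only lower peaks, in RORgt-Tbet-KO 8 had only higher, 6 only lower and 3 both, and in RORgt-RORa-KO 10 had only higher, 7 only lower and 5 both. By peak these were 5.99%, 13.8% and 22.8%, each below the share of all peaks in that comparison, with median differences of 0.10, 0.20 and 0.09. By role, the shares below stand in the order RORgt-KO, RORgt-Tbet-KO, RORgt-RORa-KO, beside 12.3%, 22.6% and 31.2% of all peaks. Of the 5 peaks of the other receptor genes, 0%, 0% and 20% changed. Ligand genes had 8 peaks, of which 12.5%, 37.5% and 25% changed, all lower but 1 of Jag2. The proteases that free the intracellular part of Notch had 20 peaks (0%, 0% and 15%) and the glycosyltransferases that modify the receptors had 8 (0%, 12.5% and 25%). Coactivator genes had 35 peaks (5.71%, 14.3% and 20%), corepressor genes with the Rbpj paralog 41 (4.88%, 9.76% and 24.4%), and genes of trafficking, turnover and inhibition 43 (9.3%, 16.3% and 25.6%). The target repressor genes had 7 peaks (14.3%, 42.9% and 28.6%). Each of these changes was a fall, at Hey1 or at the single Heyl peak. Of all peaks, 7.12%, 11.3% and 16.1% fell.

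The strongest call of the list in each comparison was a peak 32915 bp from Fbxw7, whose product marks the Notch intracellular domain for degradation (chromosome 3, 84781629 to 84782075). It was at 4.83, 5.50 and 5.20 (Control), 6.90 and 6.76 (RORgt-KO), 7.42 and 7.36 (RORgt-Tbet-KO), with 6.93, 6.99 and 6.98 (RORgt-RORa-KO), all knockouts above Control. It rose by 1.65 (SE 0.24), 2.21 (SE 0.24) and 1.79 (SE 0.22), with limma adjusted p of 2.94e-05, 2.33e-07 and 2.77e-07. A second Fbxw7 peak, inside the gene (84883840 to 84884218), fell by 1.48 (SE 0.41, limma adjusted p = 0.00939) in RORgt-Tbet-KO. In RORgt-RORa-KO it fell by 1.62 (SE 0.37, limma adjusted p = 0.00108). In RORgt-KO it was at 5.41 and 4.46, below 5.90, 6.04 and 5.92 in Control, with no call. A peak in Maml3, a paralog of Maml2 (51788584 to 51789225), rose in all 3 knockouts, by 1.43, 1.55 and 0.93. The SE were 0.22, 0.22 and 0.20, with limma adjusted p of 7.26e-05, 1.27e-05 and 0.000692. Other Maml3 peaks fell, such as one at 52035323 to 52035678. It fell by 2.16 in RORgt-Tbet-KO and 1.63 in RORgt-RORa-KO (limma adjusted p = 0.00216 and 0.00548). In RORgt-KO that peak was at 3.99 and 4.46, below 5.28, 5.80 and 5.26 in Control, with no call. Among the lower peaks, one 39305 bp from Dll1, a Notch ligand gene, fell by 1.30, 0.77 and 1.10 in the 3 knockouts (SE 0.25, 0.25 and 0.22; adjusted p = 0.000727, 0.0256 and 0.000356). One 27274 bp from Hey1, a relative of Hes1, fell by 1.07, 1.12 and 1.60 (SE 0.26, 0.26 and 0.23; adjusted p = 0.00597, 0.00253 and 5.12e-06). One in Mib1, a ligase acting on Notch ligands, fell in RORgt-RORa-KO by 1.32 (SE 0.21, adjusted p = 1.95e-05). One in Tle4, a Groucho-type corepressor gene, rose by 1.46, 1.77 and 1.80 in the 3 knockouts (SE 0.32, 0.32 and 0.29; adjusted p = 0.00281, 0.000236 and 2.12e-05), while other Tle4 peaks fell, one by 0.66 (SE 0.23, adjusted p = 0.0422) in RORgt-Tbet-KO and one by 0.575 (SE 0.16, adjusted p = 0.00537) in RORgt-RORa-KO.

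For each gene's peak with the smallest F test p, the peaks of other genes with the closest profile were sought by Pearson's r over the 10 libraries; r across so many peaks is a description with no p, and libraries of a group share genotype. The Hes1 body peak was most like peaks of Msrb3 (r = 0.982), Ercc4 (0.98) and Nebl (0.977), and the Maml2 peak 146 kb from the start like those of Phf21a (0.971), Atp6v0d2 (0.967) and Lnpep (0.965). The Rbpj peak 15.3 kb downstream was most like peaks of Prdm1 (0.974), Gnas (0.968) and Dhx32 (0.962). The Notch1 peak 5.64 kb from the start was most like those of Gnaq (0.975), Arhgef3 (0.971) and Mamdc2 (0.969), and the Notch2 peak 14 kb from the start like those of Galnt2 (0.974), Fkbp5 (0.971) and Zfp652 (0.964). The Dtx1 peak had the loosest matches, Ly6e (0.959), Pde4c (0.942) and Stard9 (0.938).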

How the data were processed

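ATAC-seq libraries of sorted ILCs were compared in 4 groups (3, 2, 2 and 3 libraries). Per the submitters' processing notes, Trim Galore 0.62, Bowtie2 2.3.5.1, SAMtools and MACS2 were used on GRCm38. The table deposited by the authors holds log2 scaled reads for 36262 peaks; the sources used here do not state the origin of the scaling. In every library the non-empty values, unlogged, were whole multiples of 1 step (tolerance 0.01), which gave back the reads; empty peaks hold 0.9 of a step. The 11 peaks on Y were left out.

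Peaks were assigned with RefSeq gene bodies (GRCm38.p6). limma 3.58.1 in R 4.3.3 was fitted to the log2 values of 36251 peaks, with a mean-variance trend, 4 groups in 1 fit and no filter (6 residual and 22.5 prior degrees of freedom); 6 contrasts and an F test were adjusted by Benjamini-Hochberg over all peaks at 0.05. Every adjusted p is from this fit, and SE is its moderated standard error. On simulated data of 36251 peaks, added changes against Control were recovered in 17% to 33% (2-fold) and in 61% to 67% (4-fold). At most 4 calls were false. Smaller changes were recovered less often and can be missed. The rates depend on the simulated share of changed peaks and are not the sensitivity of the main fit. That fit called 4463 to 11326 peaks against Control.

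The genes and lists (57 other pathway genes and 6 marker lists) were chosen with earlier results of these data known. The plan was to give library by library the peaks at the gene start and up to 4 more per gene with the smallest F test p. Several of these are given in less detail, the Notch1, Notch2 and Maml2 start peaks among them. For those peaks the text gives ranges, means, some of the groups or only the outcome of the test. Other called peaks are given too. The other pathway genes named were the 3 with the lowest p in each knockout, by their top peak; Jag2 and second peaks of Fbxw7, Maml3 and Tle4 were named after their values were seen. Alternatives covered scaling, trend, filter, voom, pseudocount, groups in the fit, library weights, a replicate block, a 5 kb limit and leaving out each library. Figures were drawn with matplotlib 3.10.9. Some items are not reported here.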

Additional observations from a re-analysis of the deposited data

How the results depend on the processing

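Of 25 calls at 16 peaks, 8 held in every alternative that tested the peak and without any one library, and none changed sign. The count of changed peaks against Control was 1 to 4 in RORgt-KO and 1 to 5 in RORgt-Tbet-KO when single libraries were left out, and 9 in RORgt-Tbet-KO with library weights. RORgt-Tbet-KO against RORgt-KO gave 2 peaks with only these groups in the fit and 2 with library weights, beside 3341 and 3148 of all 36251 peaks. RORgt-RORa-KO against RORgt-KO gave 0 with median centring, without the trend, with voom, with only these groups in the fit, with the replicate block and with a 5 kb limit, and 0 to 1 without single libraries. RORgt-RORa-KO against RORgt-Tbet-KO gave 8 with library weights and 1 to 6 without single libraries. The cause was not tested, except that the 5 kb limit drops the peak upstream of Rbpj.

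Over all peaks, the 4463 changes in RORgt-KO became 1711 without RORgt-KO replicate 1, and the 8189 in RORgt-Tbet-KO became 3359 without its replicate 1 and 12468 with library weights. Between knockouts, settings gave 95 to 3341 against 415 (RORgt-Tbet-KO and RORgt-KO), 45 to 1212 against 534 (RORgt-RORa-KO and RORgt-KO) and 1505 to 6272 against 2733 (RORgt-RORa-KO and RORgt-Tbet-KO). Deviations of same-numbered libraries from their group means correlated over 0.1 in 1 of 13 pairs (-0.121 to 0.143). Of the 10 libraries, 3 matched their own number best. In groups of 2 libraries the deviations mirror each other, so these values are not independent. They do not settle whether replicate numbers pair the libraries. The replicate block kept 23 of the 25 calls and gave 13 differing peaks in the F test against 11. Over all peaks the block gave 5659, 10130 and 11985 changes against Control, where the main fit gave 4463, 8189 and 11326. Where a library was left out of a pair, the lone library was assumed to vary like the other groups.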

Other observations

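Values are given here for Nrarp, Hey1 and Heyl, which were chosen after their values were seen because they had called peaks; of the other target repressor genes listed, Hes6, Hes7 and Hey2 had peaks with no call in any comparison and Hes5 had none. Nrarp encodes a feedback inhibitor that Notch induces, and its only peak, over the gene start, was at 7.78, 6.86 and 7.15 (Control), 7.95 and 7.73 (RORgt-KO), 8.35 and 8.23 (RORgt-Tbet-KO), with 7.89, 7.52 and 8.19 (RORgt-RORa-KO). It rose by 1.02 (SE 0.23, limma adjusted p = 0.00169) in RORgt-Tbet-KO and by 0.60 (SE 0.20, adjusted p = 0.0249) in RORgt-RORa-KO. Besides its distal peak, Hey1 had a peak at the gene end that fell by 0.59 (SE 0.18, adjusted p = 0.0208) in RORgt-Tbet-KO and one inside the gene that fell by 0.80 (SE 0.26, adjusted p = 0.02) in RORgt-RORa-KO. The single Heyl peak, at the gene end, was at 5.66, 5.90 and 6.07 (Control), 4.99 and 5.46 (RORgt-KO), 3.82 and 5.17 (RORgt-Tbet-KO), with 5.07, 5.40 and 4.97 (RORgt-RORa-KO). It fell by 1.38 (SE 0.38, limma adjusted p = 0.00869) in RORgt-Tbet-KO. Every library of the other knockouts was also below Control, with no call there.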
